A study of Homo sapiens with 24 samples.

Results

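The lysosome and autophagy genes examined here are 51 genes, found by their symbols among the 60617 rows of a table of RSEM expected counts from SKBR3 cells. They comprise 30 genes of the lysosome itself (7 proteases, 8 glycosidases and sulfatases, 4 proteins of lipid handling, 6 membrane proteins and 5 parts of the proton pump), the transcription factor genes TFEB and TFE3, and 19 genes of autophagy (3 cargo receptors, 4 members of the ATG8 family, 8 genes of initiation and nucleation and 4 of the conjugation step). SKBR3 is a human breast carcinoma line with an amplified ERBB2 gene, which encodes HER2. There were 8 libraries of polyA RNA from cells given Herceptin (trastuzumab, an antibody that binds HER2) at 4 µg/ml, 8 from cells given ApoTras, a biosimilar of it, and 8 from untreated control cells. All were grown in medium with 10% serum after seeding at 6500 cells per cm2, and RNA was taken on day 7. Whether the same dose holds for the biosimilar is not clear from the labels, and they list no control that received the carrier alone or an unrelated antibody. The study asked how alike the biosimilar and Herceptin are by the RNA of treated cells. All groups come from 1 cell line, and the labels do not say whether the 8 replicates of a group were independent cultures, so the p-values reflect only how much these libraries vary, and part of that may be technical.

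Lysosomes are acidic compartments in which hydrolases break down proteins, sugars, lipids and nucleic acids that arrive by endocytosis or by autophagy. A proton pump acidifies them, and heavily glycosylated membrane proteins line them. In autophagy, the ULK1 complex and the lipid kinase complex around BECN1 start a double membrane, a conjugation machinery attaches ATG8 proteins to it, cargo receptors bring in what is to be degraded, and the closed vesicle fuses with a lysosome. TFEB, TFE3 and MITF are related transcription factors that bind an E-box motif in the promoters of many of these genes and are held in the cytoplasm by mTORC1, a kinase complex downstream of HER2 and PI3K signalling. HER2 itself is removed from the cell surface by endocytosis, and part of it is degraded in lysosomes.

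The motif that TFEB binds was looked for in the promoters of the 51 genes. As examples, picked by motif and by change in RNA, 4 promoters are printed: several copies, a single full palindrome with little change in RNA, and no copy in a gene that rose. Picked in this way, they do not show how motif and change go together. RefSeq promoter entries (GRCh38.p14, 300 bases: 250 before the start and 50 after it) were matched for 42 of the genes. Each line gives the 200 bases before the start, 5′ to 3′ on the gene's strand, with GTCACGTGAC, TCACGTGA and CACGTG in capitals. GAA is at chr17:80101381-80101580 (plus strand), LAMP1 at chr13:113297039-113297238 (plus), MCOLN1 at chr19:7522424-7522623 (plus) and WIPI1 at chr17:68457497-68457696 (minus).
GAA: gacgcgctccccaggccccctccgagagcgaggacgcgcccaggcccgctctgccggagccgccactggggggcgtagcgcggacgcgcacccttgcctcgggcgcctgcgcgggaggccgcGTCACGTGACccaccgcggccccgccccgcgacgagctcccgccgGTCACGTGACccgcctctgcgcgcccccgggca
LAMP1: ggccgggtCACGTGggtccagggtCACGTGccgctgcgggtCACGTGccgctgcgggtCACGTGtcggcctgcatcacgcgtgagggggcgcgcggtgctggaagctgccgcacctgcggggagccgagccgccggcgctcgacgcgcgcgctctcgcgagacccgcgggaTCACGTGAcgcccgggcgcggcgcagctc
MCOLN1: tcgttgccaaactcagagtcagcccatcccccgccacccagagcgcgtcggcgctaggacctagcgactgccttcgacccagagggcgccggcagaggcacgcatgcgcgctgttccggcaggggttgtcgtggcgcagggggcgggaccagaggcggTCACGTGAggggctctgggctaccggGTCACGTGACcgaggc
WIPI1: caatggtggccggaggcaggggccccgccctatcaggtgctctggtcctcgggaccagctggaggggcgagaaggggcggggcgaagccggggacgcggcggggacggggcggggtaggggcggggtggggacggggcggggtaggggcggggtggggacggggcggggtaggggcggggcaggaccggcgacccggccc

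The motif was searched on both strands in 3 nested forms, so that each GTCACGTGAC also counts as a TCACGTGA and as a CACGTG. The full palindrome GTCACGTGAC was in 2 of 42 promoters, GAA with 2 copies and MCOLN1 with 1, which is 4.76% against 0.381% of all 27305 promoter entries. The 8-base core TCACGTGA was in 5 of 42 (CTSA, GAA, LAMP1, MCOLN1 and ATP6V0D1), or 11.9% against 1.04% of all entries. The plain E-box CACGTG was in 9 of 42, or 21.4% against 7.43%, with 6 copies in LAMP1, of which 5 lie wholly within the printed bases. Of the 42 entries, 22 belong to genes of the lysosome itself. These 22 include the 2 genes with the palindrome, all 5 with the core and 8 of the 9 with the E-box. TGTTTAC, the core that FOXO factors bind, was searched the same way and was in 1 of 42, CTSL, or 2.38% against 3.41%. No entry was matched for CTSB, ASAH1, ATP6V1H, PSAP, HEXA, LAMP2, UVRAG, ATP6V0E1 and ATP6V1A. Only 1 entry, and so 1 start, was used per gene, and other starts were not searched for any of the 42. In 8 of the 42 entries the start used lies over 1000 bases inside the outermost GENCODE start, up to 41622 bases for ATG16L1. These are ATG16L1, SCARB2, IDS, ATG5, BECN1, MAP1LC3B, CTSH and CTSA. Over the other 34 entries, a selection chosen after seeing the data, the core TCACGTGA was in 4, or 11.8%. A match describes these letters in this window only. The motif is already known from promoters of many of these genes, so its higher share here is not an independent result.

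Library totals lay between 10747837 and 12260086 expected counts with Herceptin, between 9070186 and 11880165 with the biosimilar and between 9116591 and 10759115 in control. The 6 genes chosen as markers of SKBR3 (ERBB2, GRB7, KRT8, KRT18, KRT19 and EPCAM) were all abundant. ERBB2 averaged 4512 ± 93.1 CPM (counts scaled to a common library total) with Herceptin, 4563 ± 158 CPM with the biosimilar and 4174 ± 116 CPM in control (SD, n = 8 each), with counts that were not whole in 100% of libraries. EPCAM averaged 246 ± 9.68 CPM with Herceptin, 240.0 ± 5.63 with the biosimilar and 248 ± 15.2 in control. Some of these markers rose: by edgeR's test described next, GRB7 had a log2 fold change of 0.42 with each antibody, KRT18 rose by 0.26 with Herceptin and by 0.22 with the biosimilar, and ERBB2 by 0.11 with Herceptin and by 0.13 with the biosimilar. KRT8 passed with Herceptin only, at 0.08, while KRT19 and EPCAM passed with neither. Each gene was tested with edgeR's quasi-likelihood test on all 24 libraries, and a gene is said to have risen or fallen where its p-value, adjusted over 13536 tested genes by the Benjamini-Hochberg method, was under 0.05. All 51 genes were abundant enough to be tested, the lowest at a mean of 11.9 CPM over all libraries.

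Most of the 51 genes rose modestly with each antibody. With Herceptin against control 36 rose, 3 fell and 12 did not pass the test, where 22.7% of all tested genes rose and 23.8% fell. With the biosimilar against control 40 rose, 2 fell and 9 did not pass, where 23.4% of all tested genes rose and 24.6% fell. The median log2 fold change of the 51 was 0.19 with Herceptin and 0.20 with the biosimilar, while the median over all tested genes was within 0.01 of 0 in both comparisons. The sizes of rises and falls, given below as log2 fold changes, were small. Of the genes that passed, 18 changed by at least 1.2-fold with Herceptin, against 19.9% of all tested genes, and 19 did so with the biosimilar, against 21.2%. At least 1.5-fold was reached by IDS and CD68 alone, with each antibody, a size reached by 4.08% of all tested genes with Herceptin and by 4.33% with the biosimilar. In 24 of the 51 genes all 8 Herceptin libraries were above all 8 control libraries, against 8.95% of tested genes, and likewise in 24 with the biosimilar, against 7.19%. The comparisons share their control libraries, and 35 genes rose and 2 fell in both. The share of all tested genes that rose or fell in both was not computed, so these counts have no background beside them. The tested genes include ones of lower level than the 51, so the shares above do not compare genes of like level. The 51 were also chosen with earlier results of these data known. Counts by role, given below, are of few genes and are to be read against the same shares.

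**Figure D1:**
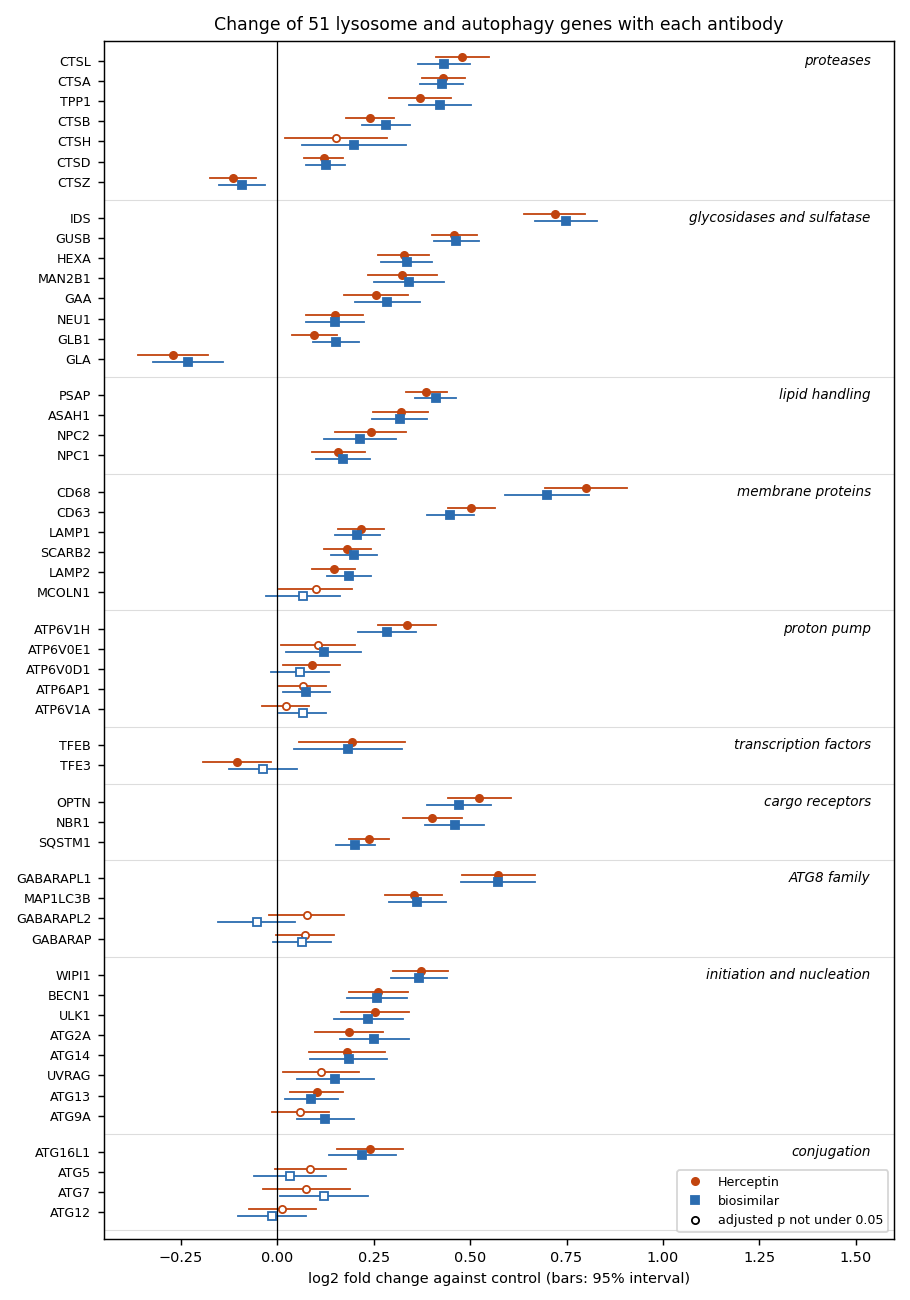
Log2 fold change against control (x axis) of each of the 51 genes with Herceptin (circles) and with the biosimilar (squares), grouped by role, with 95% intervals as bars and open symbols where the adjusted p was not under 0.05. The points lie between -0.27 (GLA) and 0.80 (CD68), most of them right of 0, and the intervals of the 2 antibodies overlap for each gene.

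Added up, the 51 genes made between 10970 and 11490 CPM with Herceptin, between 10810 and 11800 CPM with the biosimilar and between 9162 and 9793 CPM in control, with no overlap of either treated group with control. A higher CPM is a larger share of the RNA of the culture, and more cells that express a gene cannot be told apart from more RNA per cell. The proteases and the lipid handling proteins carried most of the sum: the 7 proteases averaged 3607 ± 60.5 CPM with Herceptin, 3617 ± 103 with the biosimilar and 3194 ± 98.4 in control (SD, n = 8 each), and the 4 lipid handling genes averaged 3208 ± 88.6 CPM with Herceptin, 3254 ± 111 with the biosimilar and 2492 ± 71.0 in control. Most of each role sum came from a single gene. CTSD averaged 2594 CPM with Herceptin, 2603 with the biosimilar and 2387 in control, and PSAP averaged 2733, 2779 and 2091 CPM in the same order.

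With Herceptin 5 of the 7 protease genes rose and 1 fell. With the biosimilar 6 rose and the same 1 fell. CTSL, which encodes the cysteine protease cathepsin L (chr9:87725519-87731393), lay between 220 and 237 CPM with Herceptin (median 224), between 202 and 239 with the biosimilar (median 218) and between 155 and 178 in control (median 161). All 16 treated libraries were above the highest control library, and the log2 fold change was 0.48 (SE 0.0336, edgeR adjusted p = 3.81e-15) with Herceptin and 0.43 (SE 0.0338, adjusted p = 9.33e-14) with the biosimilar. CTSA, which encodes a carboxypeptidase that also shields the enzymes of GLB1 and NEU1 (chr20:45890144-45898820), lay between 424 and 448 CPM with Herceptin (median 434), between 417 and 461 with the biosimilar (median 430.0) and between 302 and 341 in control (median 321). Its groups did not overlap either, and it rose by 0.43 on the log2 scale with each antibody. TPP1, an aminopeptidase lost in a childhood neuronal storage disease, had medians of 93.7 CPM with Herceptin (84.0 to 101), 95.7 with the biosimilar (85.9 to 105) and 73.0 in control (66.9 to 76.2), again without overlap.

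The most abundant of the proteases moved least among those that rose. CTSD, the aspartic protease cathepsin D, averaged 2594 ± 52.7 CPM with Herceptin, 2603 ± 75.9 with the biosimilar and 2387 ± 86.4 in control (SD, n = 8 each). Its log2 fold change was 0.12 with Herceptin (edgeR adjusted p = 1.03e-04) and 0.13 with the biosimilar (adjusted p = 5.55e-05). CTSB rose by 0.24 with Herceptin and by 0.28 with the biosimilar. CTSH passed the test with the biosimilar (0.20, edgeR adjusted p = 0.0128) and not with Herceptin (0.15, adjusted p = 0.055). CTSZ, which encodes cathepsin Z, a carboxypeptidase, was the protease that fell: its median was 125 CPM with Herceptin (118 to 130), 127 with the biosimilar (118 to 135) and 135 in control (129 to 141). Its groups overlapped, and the log2 fold change was -0.11 (SE 0.0295, edgeR adjusted p = 0.00148) with Herceptin and -0.09 (SE 0.0297, adjusted p = 0.0104) with the biosimilar.

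Among the 8 glycosidase and sulfatase genes 7 rose and 1 fell with each antibody. IDS, which encodes iduronate-2-sulfatase, an enzyme of dermatan and heparan sulfate breakdown (chrX:149476990-149521096), lay between 96.8 and 108 CPM with Herceptin (median 104), between 94.1 and 113 with the biosimilar (median 104) and between 57.0 and 68.5 in control (median 60.9). The lowest treated library was well above the highest control library. The log2 fold change was 0.72 (SE 0.0392, edgeR adjusted p = 2.47e-18) with Herceptin and 0.75 (SE 0.0395, adjusted p = 9.36e-19) with the biosimilar. A gene on the same strand, AC244197.3, shares 16.5% of the exon bases of IDS, with a mean of 78.0 counts a library against 959 for IDS. GUSB, which encodes beta-glucuronidase (chr7:65960684-65982314), had a median of 259 CPM with Herceptin (247 to 262), 260 with the biosimilar (241 to 268) and 185 in control (172 to 200), with no overlap and log2 fold changes of 0.46 with each antibody.

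HEXA, a subunit of beta-hexosaminidase, and MAN2B1, lysosomal alpha-mannosidase, rose by 0.33 and 0.32 with Herceptin and by 0.34 and 0.34 with the biosimilar. GAA, acid alpha-glucosidase, which breaks down glycogen and has 2 full palindromes in its promoter, averaged 55.9 ± 2.69 CPM with Herceptin, 57.1 ± 3.34 with the biosimilar and 46.9 ± 2.81 in control (SD, n = 8 each), and rose by 0.26 with Herceptin and by 0.28 with the biosimilar. NEU1, a sialidase, rose by 0.15 with each antibody. GLB1, beta-galactosidase (chr3:32996608-33097230), lay between 117 and 126 CPM with Herceptin (median 125), between 121 and 134 with the biosimilar (median 130.3) and between 111 and 123 in control (median 115). Its groups overlapped, and it rose by 0.10 (SE 0.0291, edgeR adjusted p = 0.00629) with Herceptin and by 0.15 (SE 0.0293, adjusted p = 3.66e-05) with the biosimilar. GLA, which encodes alpha-galactosidase A (chrX:101397803-101408012), went the other way. It lay between 21.8 and 25.4 CPM with Herceptin (median 23.4), between 22.01 and 26.4 with the biosimilar (median 24.1) and between 27.1 and 31.2 in control (median 27.9), so that each treated library was below each control library. Its log2 fold change was -0.27 (SE 0.0447, edgeR adjusted p = 3.16e-06) with Herceptin and -0.23 (SE 0.0452, adjusted p = 4.3e-05) with the biosimilar. It was the only 1 of the 51 genes in which all treated libraries were below control, a pattern that 8.07% of tested genes had with Herceptin and 7.73% with the biosimilar.

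The 4 lipid handling genes all rose, whichever antibody was given. PSAP, which encodes prosaposin, the precursor of the saposins that present sphingolipids to their hydrolases (chr10:71816298-71851375), lay between 2597 and 2819 CPM with Herceptin (median 2772), between 2582 and 2944 with the biosimilar (median 2784) and between 2013 and 2176 in control (median 2075). The treated and control libraries did not overlap, and the log2 fold change was 0.39 (SE 0.0267, edgeR adjusted p = 2.51e-15) with Herceptin and 0.41 (SE 0.0267, adjusted p = 4.79e-16) with the biosimilar. ASAH1, acid ceramidase, rose by 0.32 with each. NPC2 and NPC1, which hand cholesterol out of the lysosome, rose by 0.24 and 0.16 with Herceptin and by 0.21 and 0.17 with the biosimilar.

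Of the 6 membrane protein genes 5 rose with each antibody and MCOLN1 did not pass. CD68, a heavily glycosylated protein of lysosomes and endosomes best known from macrophages (chr17:7579467-7582113), had the highest log2 fold change of the 51 genes with Herceptin. Its level was between 30.6 and 34.9 CPM with Herceptin (median 31.0), between 27.7 and 33.8 with the biosimilar (median 29.3) and between 16.6 and 21.1 in control (median 18.1). No treated library reached down to the control range, and the log2 fold change was 0.80 (SE 0.0528, edgeR adjusted p = 7.02e-16) with Herceptin and 0.70 (SE 0.0541, adjusted p = 7.05e-14) with the biosimilar. Since CD68 is also used as a macrophage marker, a list of 14 other leukocyte genes was examined beside it. Only CSF1R of these was abundant enough to be tested, and it averaged 43.1 ± 1.42 CPM with Herceptin, 42.0 ± 3.55 with the biosimilar and 33.0 ± 2.93 in control (SD, n = 8 each), a rise with each antibody. The 14 summed to between 44.1 and 48.3 CPM with Herceptin, between 36.2 and 48.1 with the biosimilar and between 30.6 and 38.8 in control, nearly all of it CSF1R. TYROBP and AIF1 were at 0 in all 24 libraries, and the pan-leukocyte gene PTPRC averaged 0.032 CPM with Herceptin, 0.086 with the biosimilar and 0.0753 in control. A list of 7 fibroblast genes summed to between 10.9 and 15.1 CPM with Herceptin, between 9.96 and 12.7 with the biosimilar and between 7.62 and 10.6 in control. Of these ACTA2, which encodes smooth muscle actin, rose by 1.09 with Herceptin and by 0.87 with the biosimilar, and COL1A1 fell by 0.34 with Herceptin and by 0.35 with the biosimilar. DCN, LUM, COL1A2, COL3A1 and PDGFRB were too low to be tested. The part of these markers in the rises of the 51 genes was not tested. An overlapping transcript on the same strand, AC016876.2, shares 81.7% of the exon bases of CD68, with a mean of 57.6 counts a library against 285 for CD68, so the division of reads between them is uncertain.

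CD63, a tetraspanin of late endosomes, lysosomes and exosomes (chr12:55725323-55729707), lay between 349 and 369 CPM with Herceptin (median 355), between 310.4 and 383 with the biosimilar (median 340.2) and between 240.0 and 260 in control (median 252). The groups did not overlap, and CD63 rose by 0.50 (SE 0.0305, edgeR adjusted p = 5.84e-17) with Herceptin and by 0.45 (SE 0.0306, adjusted p = 1.85e-15) with the biosimilar. LAMP1, one of the most abundant proteins of the lysosomal membrane (chr13:113297241-113323672), lay between 544 and 618 CPM with Herceptin (median 577), between 531 and 592 with the biosimilar (median 582) and between 465 and 536 in control (median 489). The Herceptin libraries were all above control, whereas 1 biosimilar library, replicate 3, lay inside the control range. LAMP1, LAMP2 and SCARB2, the receptor that carries beta-glucocerebrosidase to the lysosome, rose by 0.22, 0.15 and 0.18 with Herceptin and by 0.21, 0.19 and 0.20 with the biosimilar. MCOLN1, a calcium channel of the lysosomal membrane whose promoter holds the palindrome and a second core, averaged 27.7 ± 1.13 CPM with Herceptin, 27.0 ± 1.58 with the biosimilar and 25.8 ± 1.85 in control (SD, n = 8 each). It did not pass the test with Herceptin (log2 fold change 0.10, edgeR adjusted p = 0.0775) or with the biosimilar (0.07, adjusted p = 0.255).

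**Figure D2:**
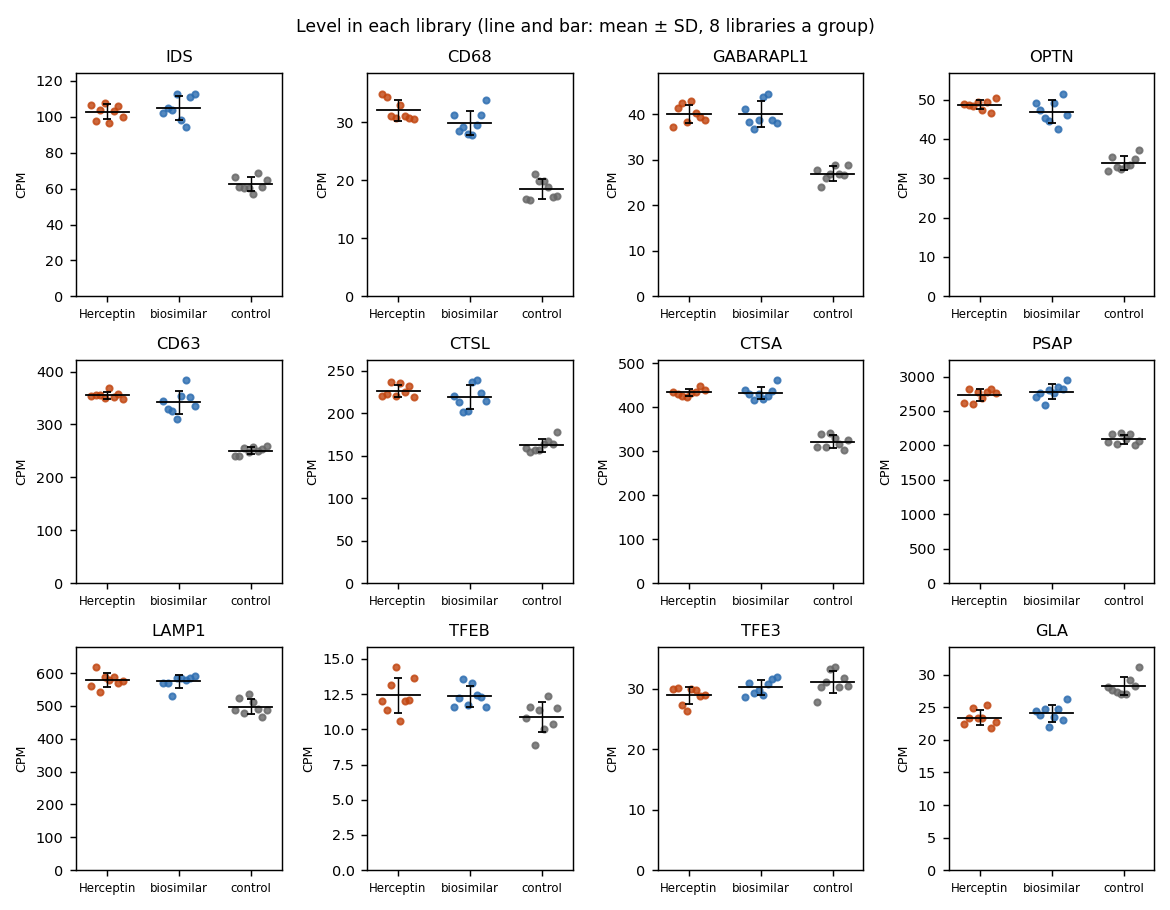
Level in CPM (y axis, starting at 0) in each library for 12 genes, with Herceptin, biosimilar and control libraries side by side in each panel and the mean ± SD of 8 libraries as line and bar. In IDS, CD68, GABARAPL1, OPTN, CD63, CTSL, CTSA and PSAP each treated library is above each control library, in GLA each is below, and in TFEB and TFE3 the groups overlap.

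Herceptin gave 2 rises among the 5 proton pump genes and the biosimilar 3, ATP6V1H by more than the median of the 51 and the other 4 with small values. ATP6V1H, the regulatory H subunit of the cytosolic part (chr8:53715557-53843558), had a median of 78.4 CPM with Herceptin (73.9 to 86.7), 76.0 with the biosimilar (72.3 to 81.8) and 62.7 in control (58.4 to 67.3). Its groups did not overlap, and the log2 fold change was 0.34 (SE 0.0371, edgeR adjusted p = 7.96e-10) with Herceptin and 0.28 (SE 0.0376, adjusted p = 4.26e-08) with the biosimilar. The other 4, ATP6V0D1, ATP6V0E1, ATP6AP1 and the catalytic subunit gene ATP6V1A, had log2 fold changes between 0.02 and 0.11 with Herceptin and between 0.06 and 0.12 with the biosimilar. Those of the 4 that passed did so close to the threshold. ATP6V0D1 passed with Herceptin (edgeR adjusted p = 0.0434), and ATP6V0E1 and ATP6AP1 passed with the biosimilar (adjusted p = 0.0362 and 0.0376). Each of these calls was lost in 10 or more of 33 alternative settings. Further from the threshold were ATP6V1A under Herceptin (edgeR adjusted p = 0.604) and ATP6V0D1 under the biosimilar (0.197).

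Of the transcription factor genes in the 51, TFEB had log2 fold changes close to the median of the 51, and TFE3 had values below 0. TFEB (chr6:41683978-41736259) lay between 10.6 and 14.4 CPM with Herceptin (median 12.1), between 11.6 and 13.5 with the biosimilar (median 12.3) and between 8.88 and 12.4 in control (median 11.1). The groups overlapped, and TFEB rose by 0.19 (SE 0.0682, edgeR adjusted p = 0.0182) with Herceptin and by 0.18 (SE 0.0695, adjusted p = 0.0276) with the biosimilar. Without control replicate 3 the edgeR adjusted p was 0.0593 with Herceptin and 0.0813 with the biosimilar, and without Herceptin replicate 4 it was 0.0525 with Herceptin. The call with the biosimilar was also lost without control replicate 5 (0.0527) or biosimilar replicate 3 (0.0591) or 5 (0.0546). That call was lost as well without a filter on low counts, and with all libraries thinned to the smallest total. TFE3 (chrX:49028726-49043486) lay between 26.3 and 30.1 CPM with Herceptin (median 29.5), between 28.6 and 32.0 with the biosimilar (median 30.3) and between 27.9 and 33.6 in control (median 30.8). It fell by 0.10 with Herceptin (SE 0.0431, edgeR adjusted p = 0.0442), a call lost in 14 of 33 alternative settings, and had a log2 fold change of -0.04 (adjusted p = 0.503) with the biosimilar. These are levels of RNA, and the activity or location of the TFEB protein was not measured. Of the 5 genes with the core TCACGTGA in the promoter, 4 rose with Herceptin (median log2 fold change 0.22) and 3 with the biosimilar (median 0.21). Of the 37 with a promoter entry that lacks it, 26 rose and 3 fell with Herceptin (median 0.19), while 29 rose and 2 fell with the biosimilar (median 0.20). IDS, CD68, GABARAPL1 and OPTN, with the highest log2 fold changes of all with Herceptin, had none of the letters searched for in these windows, of which that of IDS lies 15790 bases inside the outermost start. Whether the motif or TFEB has a part in these changes was not tested.

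All 3 cargo receptor genes rose with each antibody, and in each of them all 16 treated libraries were above control. OPTN, optineurin, a receptor for ubiquitin-marked mitochondria and bacteria (chr10:13099449-13138308), lay between 46.7 and 50.4 CPM with Herceptin (median 48.9), between 42.6 and 51.6 with the biosimilar (median 46.8) and between 31.7 and 37.1 in control (median 33.3). The log2 fold change was 0.52 (SE 0.0404, edgeR adjusted p = 6.13e-14) with Herceptin and 0.47 (SE 0.0411, adjusted p = 1.85e-12) with the biosimilar. NBR1, a receptor related to SQSTM1 in its domains (chr17:43170481-43211689), had a median of 76.0 CPM with Herceptin (73.2 to 85.9), 80.8 with the biosimilar (75.9 to 87.7) and 58.2 in control (55.0 to 62.6), and rose by 0.40 with Herceptin and by 0.46 with the biosimilar. SQSTM1, which encodes p62, the best studied receptor for ubiquitin-marked protein (chr5:179806398-179838078), rose less. Its median was 467 CPM with Herceptin (453 to 484), 454 with the biosimilar (433 to 484) and 400.2 in control (382 to 409). Its log2 fold change was 0.24 (SE 0.0253, edgeR adjusted p = 3.32e-10) with Herceptin and 0.20 (SE 0.0254, adjusted p = 1.36e-08) with the biosimilar.

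The ATG8 family split. GABARAPL1, whose protein acts in late steps of autophagosome formation (chr12:10212458-10223130), lay between 37.3 and 43.1 CPM with Herceptin (median 39.8), between 36.8 and 44.6 with the biosimilar (median 38.7) and between 23.96 and 28.9 in control (median 26.9). MAP1LC3B, which encodes LC3B, the protein commonly used to mark autophagosomes (chr16:87383995-87404779), lay between 76.1 and 85.8 CPM with Herceptin (median 81.4), between 76.5 and 87.0 with the biosimilar (median 81.6) and between 59.5 and 70.2 in control (median 63.0). In these 2 genes treated and control libraries did not overlap. GABARAPL1 rose by 0.57 (SE 0.0466, edgeR adjusted p = 2.72e-13) with Herceptin and by 0.57 (SE 0.0472, adjusted p = 4.44e-13) with the biosimilar, and MAP1LC3B rose by 0.35 with Herceptin and by 0.36 with the biosimilar. The other 2, GABARAP and GABARAPL2, did not pass with either antibody. GABARAP had log2 fold changes of 0.07 with Herceptin (edgeR adjusted p = 0.114) and 0.06 with the biosimilar (adjusted p = 0.154). GABARAPL2 had 0.08 with Herceptin (edgeR adjusted p = 0.201) and -0.05 with the biosimilar (adjusted p = 0.392), and its libraries overlapped in all 3 groups, between 33.8 and 40.1 CPM with Herceptin, between 31.2 and 37.5 with the biosimilar and between 32.3 and 40.1 in control. These 4 genes kept their direction under each of the scaling factors tried.

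In the initiation and nucleation group of 8 genes 6 passed with Herceptin and all 8 with the biosimilar, each of them upward. WIPI1, which binds the phosphoinositide of the nascent membrane (chr17:68420948-68457513), lay between 92.6 and 102 CPM with Herceptin (median 97.4), between 94.2 and 101 with the biosimilar (median 96.2) and between 66.5 and 85.8 in control (median 74.1). It rose by 0.37 with each antibody (SE 0.0357, edgeR adjusted p = 2.64e-11 with Herceptin, and SE 0.0361, adjusted p = 4.12e-11 with the biosimilar) without overlap of its libraries. BECN1, the scaffold of the lipid kinase complex, and ULK1, the kinase that starts autophagy, rose by 0.26 and 0.25 with Herceptin and by 0.26 and 0.24 with the biosimilar. ATG2A, a lipid transfer protein, and ATG14, the subunit that directs the kinase complex to autophagy, rose by 0.19 and 0.18 with Herceptin and by 0.25 and 0.18 with the biosimilar. ATG13, a partner of ULK1, rose by 0.10 with Herceptin and by 0.09 with the biosimilar, where the call was lost in 7 of 33 alternative settings. UVRAG, a partner of BECN1, had a log2 fold change of 0.11 with Herceptin (edgeR adjusted p = 0.056) and rose by 0.15 with the biosimilar. ATG9A, a membrane protein of the vesicles that seed the structure, had 0.06 with Herceptin (edgeR adjusted p = 0.186) and rose by 0.12 with the biosimilar.

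Of the 4 conjugation genes only ATG16L1 passed. ATG16L1, which positions the conjugation machinery on the membrane (chr2:233210051-233295674), had a median of 36.7 CPM with Herceptin (35.5 to 38.7), 36.5 with the biosimilar (33.3 to 39.5) and 31.8 in control (28.8 to 33.2), without overlap. It rose by 0.24 (SE 0.0421, edgeR adjusted p = 8.35e-06) with Herceptin and by 0.22 (SE 0.0428, adjusted p = 3.95e-05) with the biosimilar. ATG5, ATG7 and ATG12, the core of the conjugation reactions, had log2 fold changes of 0.09, 0.08 and 0.01 with Herceptin and of 0.03, 0.12 and -0.01 with the biosimilar. The smallest of their adjusted p was 0.121 with Herceptin and 0.075 with the biosimilar (edgeR). VGLL4 on the opposite strand shares 18.1% of the exon bases of ATG7 and had a mean of 532 counts a library against 266 for ATG7, so the level of ATG7 is uncertain.

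Set against each other, the biosimilar and Herceptin did not differ in any of the 51 genes by edgeR's quasi-likelihood test, where 0% of all 13536 tested genes passed. At an unadjusted p under 0.05 there were 2 of the 51 and 722 of all tested genes. DESeq2 called 0 of the 51 and 8 of all genes, and limma-voom called 0. The size of the differences was also bounded, with a pair of one-sided tests per gene: 51 of 51 were within 1.5-fold, against 94.7% of all tested genes, and 51 of 51 were within 1.2-fold, against 74.5%. A small SE helps a gene to pass, and genes of low level tended to have a larger SE. The 51 all averaged at least 11.9 CPM, while the tested genes include lower ones, so these shares do not compare genes of like level. The median absolute log2 difference was 0.0284. GABARAPL2 differed most, with a median of 33.5 CPM with the biosimilar and 38.0 CPM with Herceptin. Its log2 difference was -0.13 (90% interval -0.21 to -0.05, edgeR adjusted p = 0.87). CD68 was next, at -0.10 (90% interval -0.18 to -0.02, edgeR adjusted p = 0.932). For each gene that passed against control with 1 antibody only (ATP6V0D1 and TFE3 with Herceptin, CTSH, ATP6V0E1, ATP6AP1, UVRAG and ATG9A with the biosimilar), the direct comparison did not pass and the difference was within 1.2-fold.

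**Figure D3:**
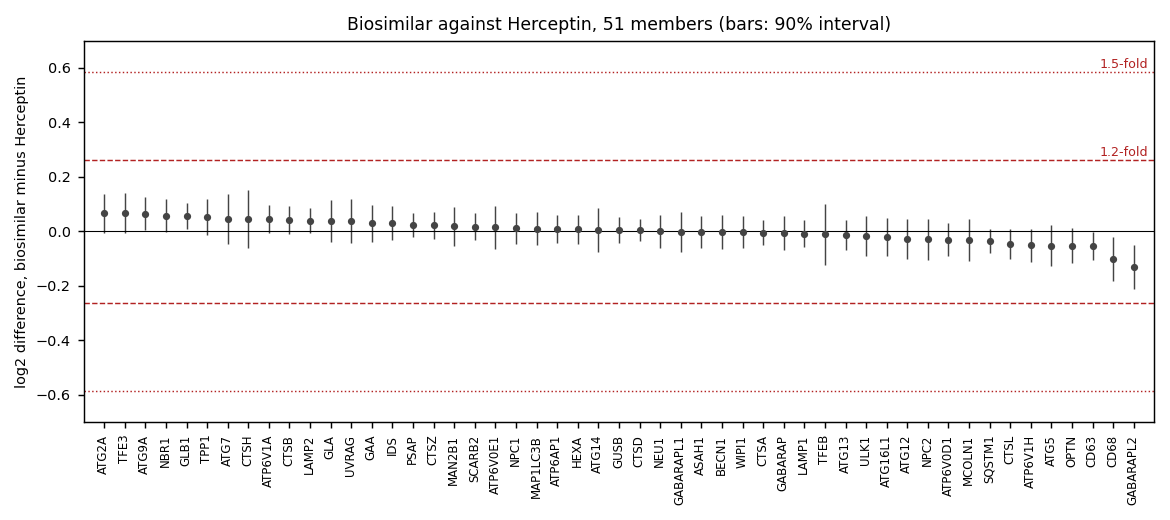
Log2 difference, biosimilar minus Herceptin (y axis), of the 51 genes in order of size, with 90% intervals as bars and dashed and dotted lines at 1.2-fold and 1.5-fold. The points lie between 0.07 (ATG2A) and -0.13 (GABARAPL2), and each interval stays inside the 1.2-fold lines.

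Levels can be compared between genes only per length, in TPM (counts divided by length and scaled to a common total), computed here from the counts and the deposited effective lengths. CTSD was highest at 1955 ± 50.8 TPM with Herceptin, 2004 ± 63.3 with the biosimilar and 1780 ± 65.6 in control (SD, n = 8 each), followed by PSAP at 1681 ± 71.0 TPM with Herceptin, 1745 ± 75.5 with the biosimilar and 1273 ± 65.4 in control. CD63 came next at 636 ± 7.41 TPM with Herceptin, 625 ± 26.1 with the biosimilar and 444 ± 8.89 in control. SQSTM1 and CTSA did not differ beyond their spread with Herceptin, at 374 ± 8.04 and 367 ± 10.1 TPM, whereas in control SQSTM1 was the higher, at 314 ± 10.3 TPM against 269 ± 15.4. LAMP1 and CTSA did not differ beyond their spread in control, at 263 ± 16.5 and 269 ± 15.4 TPM. The lowest were TFEB, at 8.27 ± 0.918 TPM with Herceptin, 8.39 ± 0.517 with the biosimilar and 7.16 ± 0.816 in control, and ATG14, at 7.55 ± 0.544 TPM with Herceptin, 7.73 ± 0.571 with the biosimilar and 6.59 ± 0.363 in control.

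**Figure D4:**
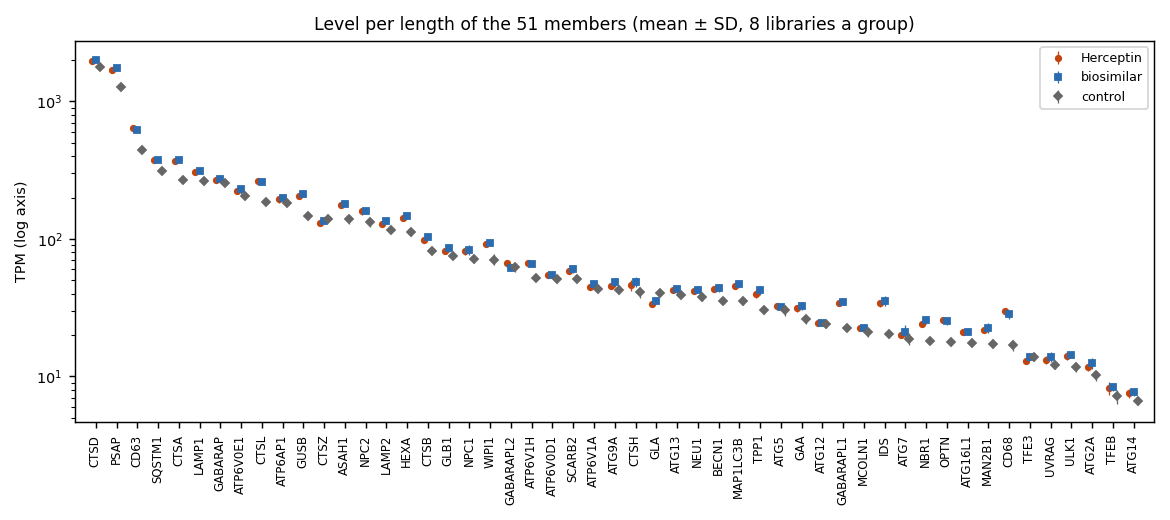
Mean level per length in TPM (y axis, log scale) ± SD over 8 libraries for each of the 51 genes with Herceptin (circles), the biosimilar (squares) and in control (diamonds), in order of the control level. CTSD and PSAP stand apart at the top, and TFEB and ATG14 are the lowest in control.

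A wider list of 141 other lysosome and autophagy genes, 133 of which were abundant enough to be tested, held more rises than falls. This list was also chosen with earlier results of these data known. Its counts are therefore not an independent check of the rises described above. With Herceptin 73 rose, 14 fell and 46 did not pass (median log2 fold change 0.11), where 22.7% of all tested genes rose and 23.8% fell. With the biosimilar 71 rose, 15 fell and 47 did not pass (median 0.13), where 23.4% rose and 24.6% fell. Other hydrolases had the highest median: of 33, 23 rose and 2 fell with Herceptin, where the biosimilar gave 22 rises and 2 falls. Of 42 remaining autophagy genes, Herceptin gave 26 rises and 4 falls and the biosimilar 24 rises and 5 falls. Each antibody gave 6 rises and 2 falls among 16 further proton pump genes. Among 13 sorting genes there were 6 rises and 2 falls with Herceptin, and 6 rises and 3 falls with the biosimilar. Among 15 further membrane protein genes there were 6 rises and 2 falls with Herceptin, and 8 rises and 1 fall with the biosimilar. Among 14 genes of TFEB's partners and of nutrient sensing there were 6 rises and 2 falls with Herceptin, and 5 rises and 2 falls with the biosimilar.

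CTSO, a cysteine cathepsin gene, had the highest log2 fold change of the wider list. It averaged 9.43 ± 1.16 CPM with Herceptin, 9.36 ± 1.32 with the biosimilar and 4.47 ± 0.523 in control (SD, n = 8 each). Its log2 fold change was 1.08 (SE 0.0966, edgeR adjusted p = 4.05e-12) with Herceptin and 1.07 (SE 0.098, adjusted p = 7.18e-12) with the biosimilar. CTSF, another cathepsin gene, averaged 6.37 ± 0.411 CPM with Herceptin, 6.30 ± 0.882 with the biosimilar and 3.82 ± 0.646 in control. It rose by 0.74 with Herceptin and by 0.72 with the biosimilar. MITF, the third factor of the TFEB family in the lists, averaged 16.8 ± 0.953 CPM with Herceptin, 16.8 ± 1.31 with the biosimilar and 10.4 ± 0.541 in control. Its libraries did not overlap between treated and control cells, and it rose by 0.69 (SE 0.0583, edgeR adjusted p = 7.78e-13) with Herceptin and by 0.69 (SE 0.0593, adjusted p = 1.41e-12) with the biosimilar. DEPP1, a gene induced by FOXO factors, was low at 2.68 ± 0.377 CPM with Herceptin, 2.79 ± 0.733 with the biosimilar and 1.67 ± 0.463 in control, and rose by 0.68 with Herceptin and by 0.73 with the biosimilar. ATP6V0A4, a proton pump subunit known from kidney, rose by 0.65 with Herceptin and by 0.71 with the biosimilar.

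CTSC, the dipeptidyl peptidase that activates granule serine proteases in leukocytes, was the gene of the wider list that fell furthest with Herceptin. It averaged 47.4 ± 3.71 CPM with Herceptin, 48.5 ± 3.29 with the biosimilar and 64.7 ± 3.04 in control (SD, n = 8 each), and fell by 0.45 on the log2 scale (SE 0.0439, edgeR adjusted p = 3.67e-11) with Herceptin and by 0.42 (SE 0.0444, adjusted p = 3.42e-10) with the biosimilar. LAPTM4B, a lysosomal membrane protein, fell by 0.42 with Herceptin and by 0.44 with the biosimilar. ATP6V0B, a proton pump subunit, and ATG3, the enzyme that attaches ATG8 proteins to lipid, fell by 0.38 and 0.29 with Herceptin and by 0.39 and 0.30 with the biosimilar. CLN6, a protein of the endoplasmic reticulum needed for hydrolase transport, fell by 0.35 with each, and had counts that were not whole in 100% of libraries.

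**Figure D5:**
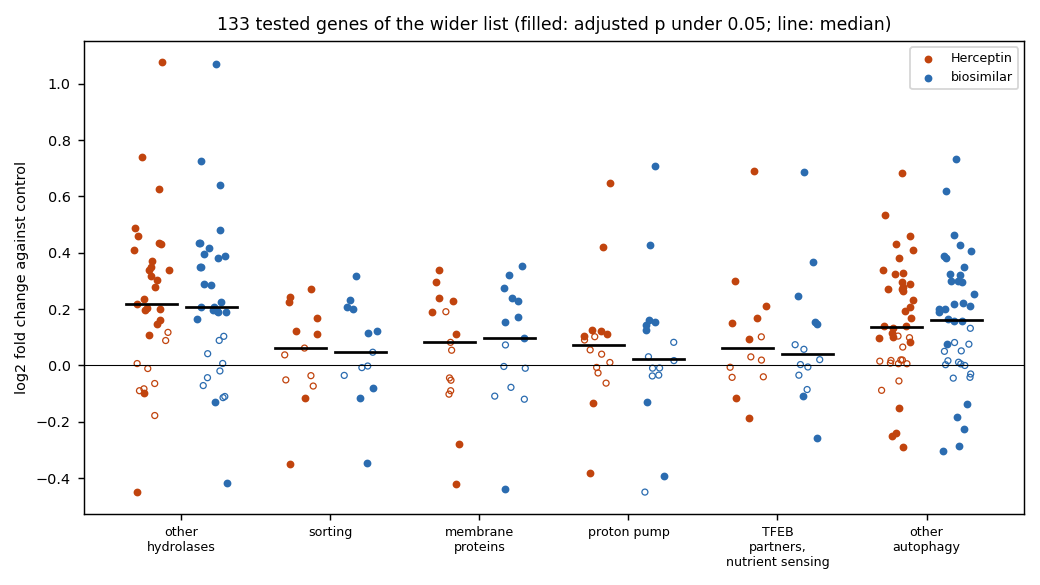
Log2 fold change against control (y axis) of the 133 tested genes of the wider list by role, with Herceptin left of the biosimilar in each role, filled where the adjusted p was under 0.05 and with the median as a line. Other hydrolases reach from -0.45 (CTSC) to 1.08 (CTSO) with Herceptin.

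For 18 of the 51 genes the expected count was not whole in most libraries, which means that part of their reads also fit another gene or copy, and their levels are uncertain to that degree. They are CTSA, CTSD, GLB1, GUSB, HEXA, IDS, MAN2B1, NPC1, ASAH1, CD68, SQSTM1, NBR1, MAP1LC3B, GABARAP, BECN1, ATG9A, WIPI1 and ATG7. The strand setting of the counting is not given in the sources used here, so reads of genes that overlap on opposite strands, such as SQSTM1 with MRNIP and WIPI1 with ARSG, may not have been told apart. GABARAPL1, OPTN, CD63, CTSL and GLA, among the genes with the clearest separation of the groups, are not in the list of 18.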

How the data were processed

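RNA was measured in 24 SKBR3 libraries (polyA RNA, 126-base paired reads from a stranded kit, per the labels' protocols). The authors deposited expected counts per gene, estimated with RSEM after STAR alignment to GRCh38.p12, per the submitters' processing notes, with a length and an effective length for each gene. The annotation release and the strand setting were not given in the sources used here. Expected counts as deposited were rounded, since 9.29% of them were not whole. Genes were filtered with filterByExpr, leaving 13536. All libraries were fitted in 1 model with R 4.3.3, limma 3.58.1 and edgeR 4.0.16, using TMM scaling, robust quasi-likelihood F tests, a prior count of 0.125 and Benjamini-Hochberg adjustment over all tested genes. Every p-value is two-sided, except in the tests that bound the difference between the antibodies. CPM values used TMM-scaled totals. Positions are from GENCODE release 29 on GRCh38.

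Genes given with values by library were the 10 highest rises and up to 5 furthest falls per antibody (3 fell with Herceptin and 2 with the biosimilar), the gene with the smallest p in each role, the 3 with the smallest p between the antibodies, and TFEB, TFE3, SQSTM1, MAP1LC3B, GABARAPL1, LAMP1 and CD68. From the wider list the 5 highest rises and 5 furthest falls with Herceptin were named, without values by library. The 51 genes, the lists and the tests were chosen with earlier results of these data known. The model was tested on simulated data. Counts differed by more than sampling noise in all 84 pairs of libraries of a group (chi-square per degree of freedom 1.52 to 7.91). Each library was counted as 1 replicate, but this check cannot tell separate cultures from separate library preparations of 1 culture. The symbol CLN3 stood on 2 rows, of which the more abundant was used. Alternatives were DESeq2 1.42.0, limma-voom, other scalings and filters, a replicate block, thinning to equal totals, fits of only the groups compared and leaving out each library.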

Additional observations from a re-analysis of the deposited data

Results flagged for a closer look

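In 2 of 153 groups of 8 libraries (51 genes in 3 groups) 1 library stood far from the other 7, with a gap, as a share of the group's range, over Dixon's 95% critical value. Chance alone gives such a gap in about 1 in 20 groups. LAMP1 was at 531.1 CPM in biosimilar replicate 3, with the other 7 biosimilar libraries between 569.5 and 591.6 CPM. CD63 was at 368.6 CPM in Herceptin replicate 5, with the other 7 Herceptin libraries between 348.9 and 357.0 CPM. The rises of LAMP1 and CD63 against control kept their calls without these libraries.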

How the results depend on the processing

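The counts of genes that rose or fell were within 1.5 times of those reported in all alternatives but 1. With Herceptin between 35 and 40 of the 51 rose and 2 or 3 fell, and with the biosimilar between 37 and 41 rose. Without a filter on low counts 1 gene fell with the biosimilar (CTSZ no longer passed, adjusted p = 0.0569), against 2 otherwise, also without any single library. Leaving out 1 library gave 35 to 39 risen with Herceptin and 37 to 40 with the biosimilar. In the wider list 68 to 76 rose with Herceptin and 68 to 72 with the biosimilar. None of the 51 genes differed between the antibodies in any alternative, and all 51 stayed within 1.5-fold in each fit that gave this test. Over all tested genes DESeq2 called 8, no filter on low counts 12 and the replicate block 14. No called change turned its direction.

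Single genes near the threshold did change their call. With Herceptin, TFE3 lost its call without control replicate 3, 4, 5 or 7 or Herceptin replicate 3, 4, 7 or 8, and with DESeq2, upper-quartile scaling, no filter, the replicate block, only the groups compared or thinning (adjusted p 0.0162 to 0.181 over all alternatives). ATP6V0D1 lost it without control replicate 1, 3, 5 or 7 or Herceptin replicate 4, 5, 6, 7 or 8, with DESeq2, no filter or thinning (adjusted p up to 0.114). With the biosimilar, ATP6AP1 lost its call without control replicate 1, 3, 5, 6 or 7 or biosimilar replicate 1, 4, 7 or 8, and with no filter or thinning (adjusted p up to 0.1). ATP6V0E1 lost it without control replicate 2, 4 or 7 or biosimilar replicate 1, 3, 5, 6 or 8, and with only the groups compared or thinning (up to 0.0938). For ATG13 it was lost without control replicate 1 or 8 or biosimilar replicate 2, 4, 7 or 8, and with no filter (up to 0.113). For TFEB it was lost without control replicate 3 or 5 or biosimilar replicate 3 or 5, and with no filter or thinning (up to 0.0813). CTSH, ATP6V0E1, ATP6AP1, UVRAG, ATG5, GABARAP and MCOLN1 with Herceptin, and ATP6V1A and ATG7 with the biosimilar, gained a call in at least 1 alternative. The cause was not tested.

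The replicate numbers were not treated as pairing the libraries, since the labels do not say what a shared number means. Deviations of same-numbered libraries correlated between -0.078 and 0.102, and 7 of 24 libraries matched their own number best. The number expected by chance was not computed, so these values do not settle whether the libraries are paired. The replicate block raised the calls among all tested genes from 6283 to 6584 with Herceptin and from 6495 to 6735 with the biosimilar. With the replicate block each antibody gave 40 rises and 2 falls among the 51 genes. Thinning all libraries to the smallest total left 37 called with Herceptin and 40 with the biosimilar. For TFEB, ATG14 and other genes of low level, depth limits how small a change could pass.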
